A study of Mus musculus with 9 samples.

Results

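RNA levels of 30 chromatin repressors of the 2-cell-like (2C-like) state were examined in mouse embryonic stem cells (ESCs) depleted of Dppa2 or Dppa4. The members were chosen by name, as factors known to hold 2-cell genes or endogenous retroviruses silent in ESCs. All 30 were found, with 1 row each, among the 25965 rows of the deposited expression table. The cells were E14 ESCs of 129/Ola background, a single established line grown in serum and LIF without feeders. The study's text places its knockdowns in ESCs that carry MERVL::tdTomato and Zscan4c::eGFP reporters, which the labels do not name. They received control siRNA, Dppa2 siRNA or Dppa4 siRNA at 0 h and again at 48 h, and RNA was taken at 96 h (4 d). Polyadenylated RNA was sequenced from 3 libraries per siRNA, lettered A to C, for 9 in all. The study calls its replicates biological, but the labels do not say whether the libraries of a group came from separate cultures, so p-values measure the spread between these libraries, which may be technical. The question was whether repressor transcripts were higher where 2-cell genes were lower.

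A small and changing fraction of cells in ESC cultures enters the 2C-like state, in which genes of the 2-cell embryo such as the Zscan4 cluster, and MERVL retroviral elements, are transcribed. Dppa2 and Dppa4 are DNA-binding proteins that promote these genes. Opposing them, KRAB zinc finger proteins recruit the scaffold Trim28 and the histone methyltransferase Setdb1, while the LSD1-HDAC and G9a-GLP complexes remove active marks and add repressive histone H3 lysine 9 methylation. Histone chaperones, HP1 proteins and the SUMO pathway act with them. The libraries came from whole cultures, so the values describe mostly cells outside the 2C-like state, and fewer cells of a type cannot be told apart from less RNA per cell.

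The targeted transcripts followed the labels. Dppa2 stood at 7.26, 7.16 and 6.94 on the log2 scale with control siRNA and at 3.36, 3.86 and 3.68 with Dppa2 siRNA, and fell by 91.1% (limma adjusted p = 2.13e-05). Dppa4 stood at 7.02, 7.11 and 7.06 with control siRNA and at 6.16, 6.14 and 6.09 with Dppa4 siRNA. It fell by 47.6% (limma adjusted p = 0.000281). Of short stretches of these transcripts, 36.4% for Dppa4 and 29.4% for Dppa2 occur letter for letter in other annotated genes. Both falls therefore depend on how reads with several matches were treated, which was not tested. For Dppa4 the paper reports a larger fall of mRNA by quantitative RT-PCR, and a larger one again in protein. It also reports less Dppa2 protein with Dppa4 siRNA, at unchanged Dppa2 mRNA, and a smaller fall of Dppa4 protein with Dppa2 siRNA. The knockdowns were thus not separate depletions of protein. Depth, estimated from the smallest steps between low values, was 16.8 to 39.7 M reads per library. Every member had at least 162 estimated reads in every library. Library A of the control, B of the Dppa2 and C of the Dppa4 group were each higher in long transcripts than the other libraries of their group. The counts of calls, the medians and the change of Zfp809 are given with and without them. For the other members the change without these libraries is not listed.

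The repressors were well expressed in control ESCs. Levels between genes are compared per kb of the longest coding transcript in GENCODE vM21, on the log2 scale, because the deposited values were not divided by length. All 30 members stood above the median of the 14601 genes tested, 23 were in the top 25% and 10 in the top 5%. Trim28 was the highest at 9.54 ± 0.05 (SD, n = 3), above 99.6% of tested genes. Nucleolin (Ncl) followed at 8.40 ± 0.39, a value that rests on an annotated transcript of 8202 bases, and the SUMO-activating subunit Sae1 at 7.59 ± 0.10. Rcor1 at 1.97 ± 0.32, Smchd1 at 2.08 ± 0.66, Zmym2 at 2.15 ± 0.40 and Zfp809 at 2.81 ± 0.16 were the lowest of the set. The order of Rcor1, Smchd1 and Zmym2 was within their spread, as was that of Cbx1, Hdac1, Rbbp4, Sumo2, Kdm1a and Lin28a, which all lay between 6.39 and 6.67. Per kb, Trim28 was above Ncl by more than their spread, but that order rests on the annotated lengths. Before division by length, the control mean was 11.44 for Ncl and 11.23 for Trim28.

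**Figure D1:**
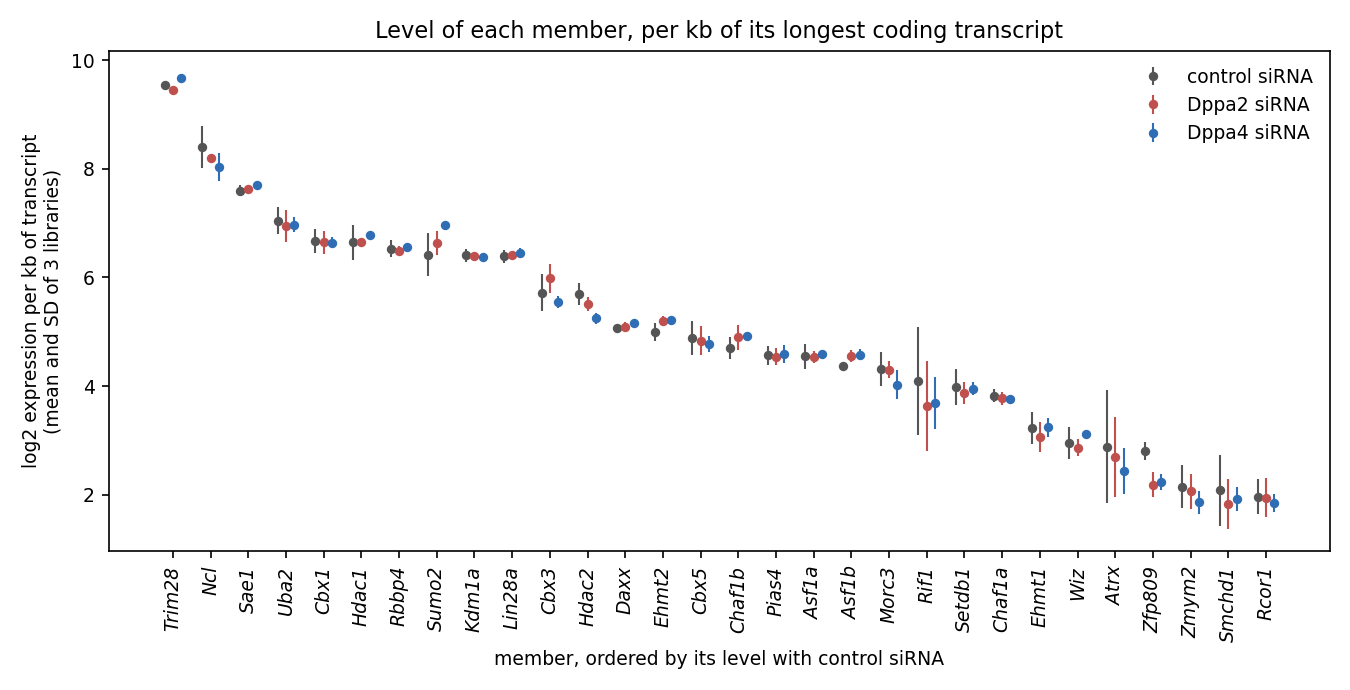
Log2 expression per kb of transcript for each of the 30 members, as the mean and SD of 3 libraries with control siRNA (gray), Dppa2 siRNA (red) and Dppa4 siRNA (blue). Members are ordered by their level with control siRNA, from Trim28 at 9.54 to Rcor1 at 1.97, and the SD bars of Rif1 and Atrx are the widest.

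No member was called higher or lower in either knockdown. A gene was called where limma, fitted over all 14601 tested genes and 9 libraries, gave a Benjamini-Hochberg adjusted p below 0.05. With Dppa2 siRNA 0 of 30 members were called, against 3.44% of all tested genes, of which 1.16% were higher and 2.27% lower. With Dppa4 siRNA 0 of 30 were called, against 3.44% of all tested genes, of which 1.1% were higher and 2.34% lower. Among the 8097 tested genes within the members' own range of mean expression, the called shares were 0.865% and 1.14%, so a count of 0 in 30 lies near the background. Stricter calls, which also required a difference beyond that of genes of like expression, held 1.85% and 1.92% of tested genes and 0 members. At an unadjusted limma p below 0.05, 1 member passed with Dppa2 siRNA and 3 passed with Dppa4 siRNA, or 3.33% and 10% of members. The background was 15.7% and 18% of all tested genes, and 7.01% and 10.5% of those in the members' range of expression. Leaving out 1 library raised these counts to at most 4 (without control library C) and 6 (without Dppa4 library C). The share of all tested genes was not counted in those fits, so these counts have no background.

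The intervals bound how far the members could have moved. The 95% limma interval lay below a rise of 1.5-fold for 26 of 30 members in each knockdown, against 64.4% of all tested genes in the Dppa2 and 63.5% in the Dppa4 knockdown. Among tested genes in the members' range of expression the shares were 80.8% and 79.6%, near the 86.7% of members. A rise of 2-fold lay outside the interval of all 30 in both knockdowns, beside 7938 and 7934 of the 8097 tested genes in that range, and of at least 28 and 27 members over 20 alternative settings. With Dppa2 siRNA the intervals of Atrx, Cbx3, Sumo2 and Rif1 reached 1.5-fold, and with Dppa4 siRNA those of Atrx, Sumo2, Rif1 and Smchd1. Over the 20 settings the number of members with an interval below 1.5-fold ran from 23 to 28 in each knockdown. It was lowest without control library A or Dppa2 library A for Dppa2 siRNA, and without control library B for Dppa4 siRNA. Of the 30 members, 7 were nominally higher in both knockdowns, 15 were lower in both and 8 had opposite signs.

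The median log2 change of the members was -0.03 in each knockdown, beside 0.02 over all tested genes for Dppa2 siRNA and 0.03 for Dppa4 siRNA. With Dppa2 siRNA 8 of 30 members had a positive change, and with Dppa4 siRNA 14 of 30. Without control library A, these counts became 21 and 22 and the medians 0.04 and 0.08. Leaving out each library in turn, the medians ran from -0.12 to 0.04 and from -0.11 to 0.08. The count for Dppa2 siRNA became 16 without Dppa2 library A and 13 without Dppa2 library C, and was 12 without control library C. The direction of the list therefore rested on single libraries, and the knockdowns share their control libraries.

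**Figure D2:**
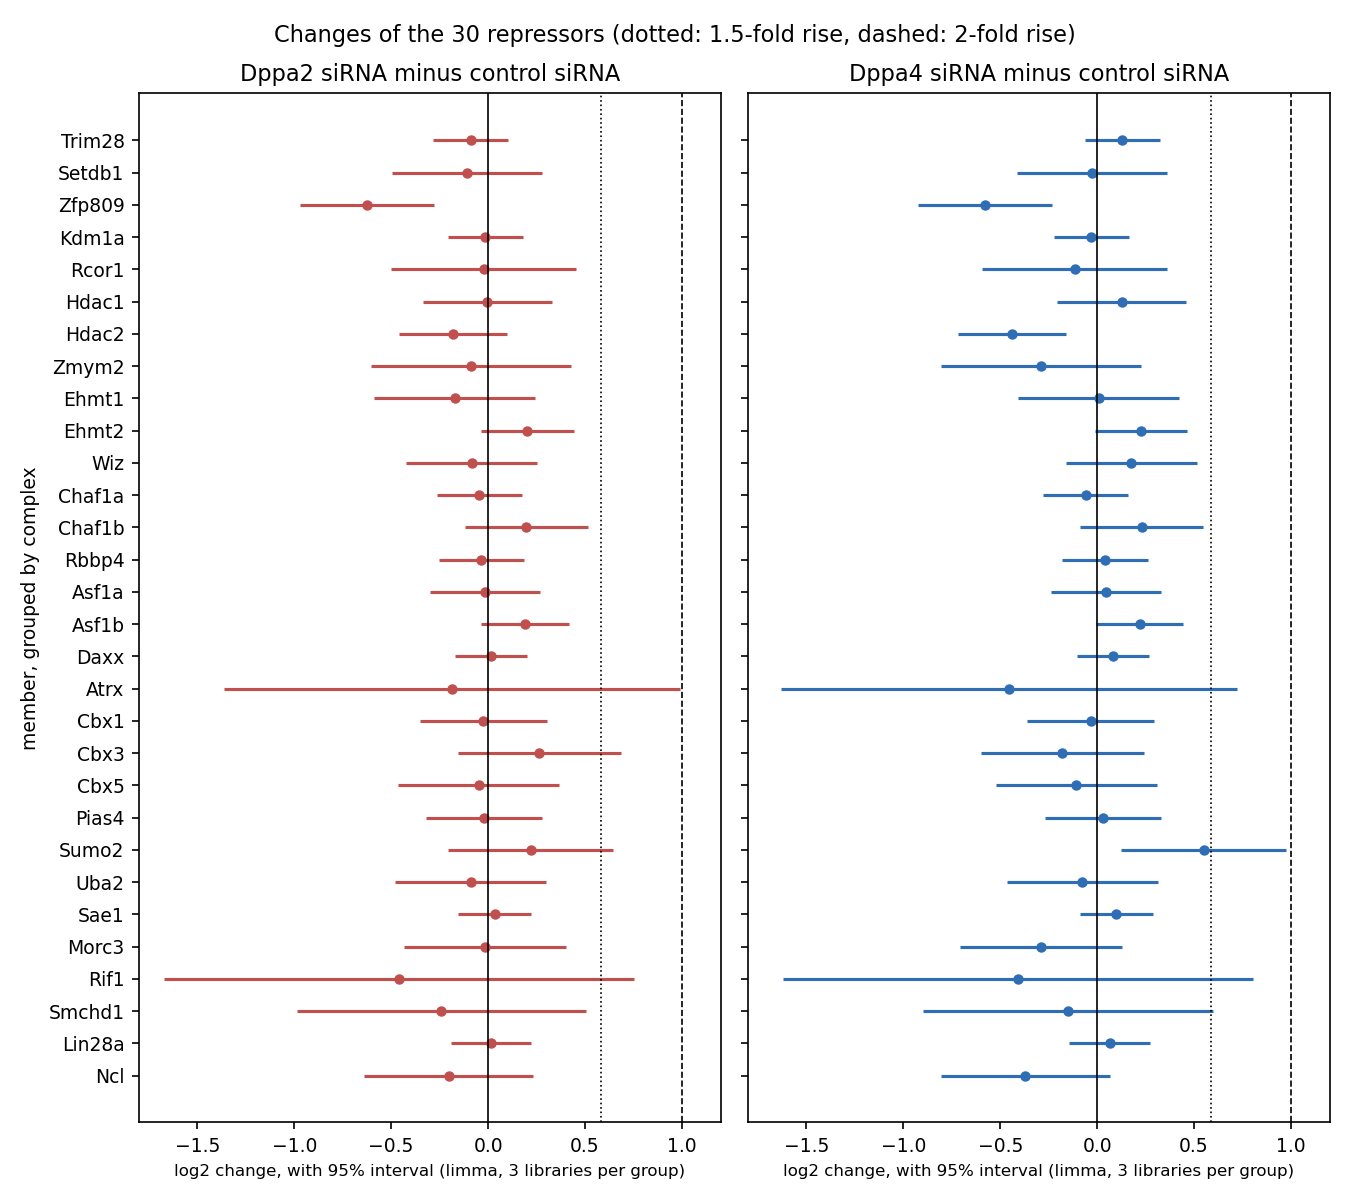
Log2 change of each of the 30 members with its 95% limma interval, for Dppa2 siRNA minus control siRNA (left, red) and Dppa4 siRNA minus control siRNA (right, blue), with 3 libraries per group. Only Zfp809 in both panels and Hdac2 and Sumo2 on the right have intervals that do not cross 0, and none of these was called.

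Of the Trim28-Setdb1 axis, Zfp809 had the largest difference of any member. Zfp809 (chr9:22225714-22243197, GRCm38, plus strand) encodes a KRAB zinc finger protein that recruits Trim28 to proviral DNA. It stood at 3.84, 3.53 and 3.61 with control siRNA, at 2.95, 3.30 and 2.86 with Dppa2 siRNA, and at 3.03, 2.97 and 3.25 with Dppa4 siRNA. Every knockdown library was below every control library. The Dppa2 knockdown differed from control by -0.62 (95% interval -0.97 to -0.28, adjusted p = 0.0653) and the Dppa4 knockdown by -0.58 (-0.92 to -0.23, adjusted p = 0.0817), so neither was called. Over 20 alternative settings the adjusted p ran from 0.0311 to 0.251 in the first comparison and from 0.0563 to 0.296 in the second. It passed 0.05 in 2 of them, both for Dppa2 siRNA: with no filter on low values (0.0311) and without Dppa2 library B (change -0.75, 0.0364). This repressor was thus on the opposite side from a rise.

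Trim28, the scaffold that KRAB zinc finger proteins bind, had log2 values of 11.23, 11.28 and 11.19 with control siRNA, 11.19, 11.19 and 11.06 with Dppa2 siRNA, and 11.28, 11.35 and 11.46 with Dppa4 siRNA. Its change was -0.09 (-0.28 to 0.10) in the Dppa2 knockdown and 0.13 (-0.06 to 0.32) in the Dppa4 knockdown. Setdb1, the methyltransferase that Trim28 recruits to place histone H3 lysine 9 trimethylation, stood at 6.81, 6.50 and 6.15, then 6.26, 6.60 and 6.27, then 6.33, 6.46 and 6.57 in the control, Dppa2 and Dppa4 groups, the order used from here on. The groups overlapped, and the changes were -0.11 (-0.50 to 0.28) and -0.03 (-0.41 to 0.36).

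In the LSD1-HDAC complex the demethylase Kdm1a (LSD1), which removes methyl groups from histone H3 lysine 4, changed little. It stood at 8.08, 8.07 and 7.87 with control siRNA, at 7.98, 8.02 and 7.98 with Dppa2 siRNA, and at 7.96, 7.97 and 8.0 with Dppa4 siRNA. The intervals of its changes, -0.21 to 0.18 and -0.22 to 0.16, were among the narrowest of the 30. Hdac2, a histone deacetylase of the complex, stood at 7.26, 7.28 and 7.63 with control siRNA and at 6.89, 6.90 and 7.07 with Dppa4 siRNA, so that all Dppa4 libraries were below all control libraries. Its change of -0.44 (-0.72 to -0.16) was not called (adjusted p = 0.0995). With Dppa2 siRNA its values of 7.23, 7.07 and 7.32 overlapped the control, with a change of -0.18 (-0.46 to 0.10). Zmym2, a SUMO-binding zinc finger protein that joins this complex, stood at 5.40, 4.82 and 4.64, then 4.62, 5.23 and 4.75, then 4.45, 4.68 and 4.87. Its groups overlapped, with changes of -0.09 (-0.60 to 0.43) and -0.29 (-0.80 to 0.22). The scaffold Rcor1 (CoREST) and the deacetylase Hdac1 changed by -0.02 and -0.00 with Dppa2 siRNA and by -0.12 and 0.13 with Dppa4 siRNA.

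Hdac1 values carry reads that cannot be placed with certainty. Of the 50-base stretches of its transcript, 58.8% occur letter for letter in transcripts of other annotated genes, chiefly the processed pseudogene Gm10093 (chr17:78491565-78493541). How reads with several matches were counted is not given in the sources used here. Gm10093 had its own row, at 5.66, 5.88 and 5.95 with control siRNA, and changes of 0.01 (-0.24 to 0.27) and -0.04 (-0.29 to 0.22). The sequence below is shown because it holds the first such stretch of the Hdac1 coding sequence that opens after a difference. It runs across exon junctions within chr4:129523065-129524268 (GRCm38, minus strand, GENCODE vM21), and capitals mark the 50 bases also found in Gm10093.
Hdac1: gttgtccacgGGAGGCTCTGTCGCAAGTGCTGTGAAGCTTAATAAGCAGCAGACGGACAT
The shared run goes on to 65 bases, and 80.2% of the 50-base stretches of the Hdac1 coding sequence are held by that pseudogene.

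In the G9a-GLP complex, Ehmt2 (G9a), which adds mono- and dimethylation to histone H3 lysine 9, was nominally higher in both knockdowns. It stood at 6.88, 6.94 and 7.20 with control siRNA, at 7.31, 7.13 and 7.19 with Dppa2 siRNA, and at 7.25, 7.28 and 7.17 with Dppa4 siRNA. Control library C lay among the knockdown libraries, and the groups overlapped. The changes of 0.20 (-0.04 to 0.44, adjusted p = 0.425) and 0.23 (-0.01 to 0.47, adjusted p = 0.304) were not called, and a rise above 1.36-fold and 1.38-fold lay outside their intervals. Its partner Ehmt1 (GLP) changed by -0.17 and 0.01, and Wiz, a zinc finger protein that binds both enzymes, by -0.08 and 0.18.

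**Figure D3:**
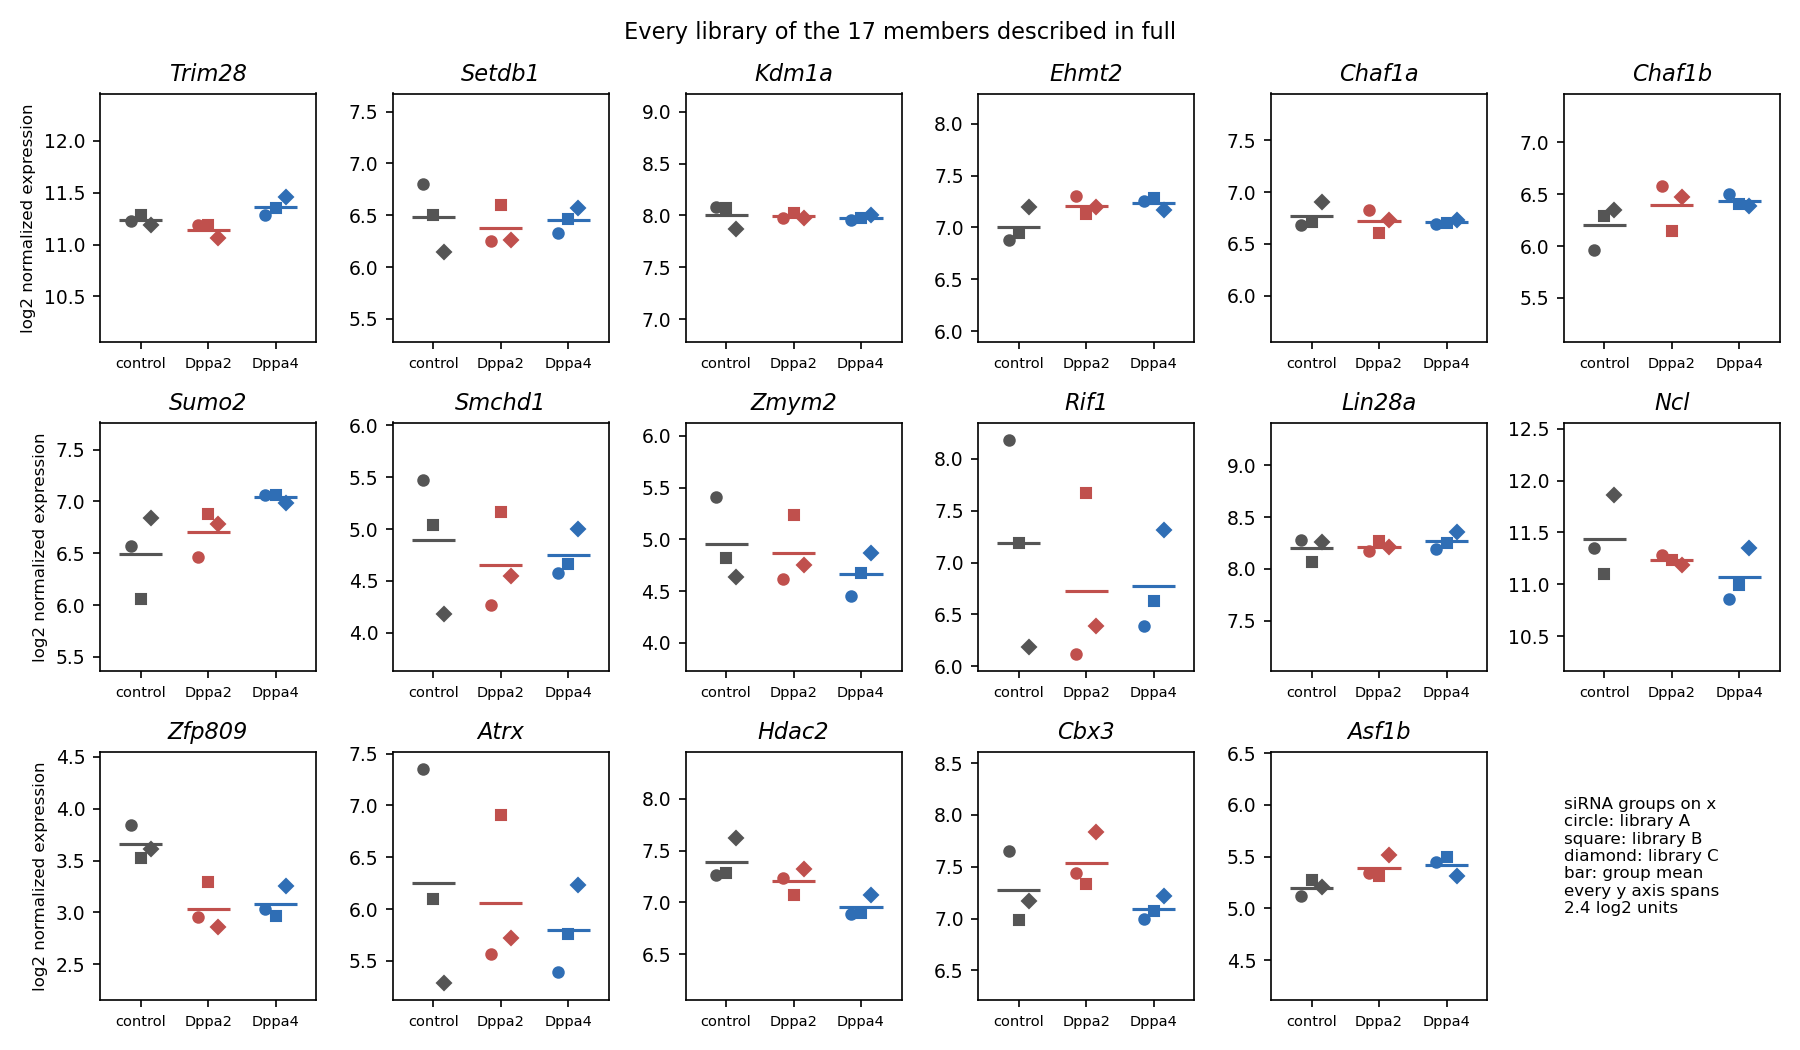
Log2 normalized expression of every library for the 17 members described in full, with the siRNA group on the x axis, a symbol for each library and a bar for each group mean. Each y axis spans 2.4 log2 units. Zfp809 is lower in all knockdown libraries, and Rif1, Atrx and Smchd1 have the widest ranges in the control libraries.

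Among the histone chaperones, Chaf1a and Chaf1b form with Rbbp4 the CAF-1 complex, which deposits histones H3 and H4 behind the replication fork. Chaf1a stood at 6.68, 6.71 and 6.90, then 6.83, 6.60 and 6.73, then 6.69, 6.70 and 6.73, with changes of -0.05 (-0.26 to 0.17) and -0.06 (-0.28 to 0.16). Chaf1b stood at 5.97, 6.29 and 6.35 with control siRNA, at 6.58, 6.15 and 6.47 with Dppa2 siRNA, and at 6.50, 6.41 and 6.39 with Dppa4 siRNA. Only the Dppa4 libraries were all above the control, and the changes of 0.20 (-0.12 to 0.51) and 0.23 (-0.09 to 0.55) were not called.

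Asf1b, which hands histones to CAF-1, was the only member with all libraries above the control in both knockdowns. It stood at 5.12, 5.28 and 5.21 with control siRNA, at 5.34, 5.32 and 5.51 with Dppa2 siRNA, and at 5.45, 5.49 and 5.31 with Dppa4 siRNA. The changes were 0.19 (-0.04 to 0.42, adjusted p = 0.43) and 0.22 (-0.01 to 0.44, adjusted p = 0.295). Its paralog Asf1a, the third CAF-1 subunit Rbbp4 and the histone H3.3 chaperone Daxx changed by no more than 0.08 in size. Atrx, the partner of Daxx, could not be judged at this spread. Its control libraries alone ran from 5.29 to 7.35, and its intervals went from -1.36 to 0.99 and from -1.63 to 0.72.

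Whether groups of libraries overlapped was also counted over all genes. With Dppa2 siRNA, Asf1b alone stood wholly above the control and Zfp809 alone wholly below it, which is 3.33% of members in each direction, beside 9.57% and 8.2% of all tested genes. With Dppa4 siRNA, 5 members stood wholly above (Chaf1b, Asf1b, Daxx, Sumo2 and Sae1), or 16.7%, beside 13.7% of tested genes. Zfp809 and Hdac2 stood wholly below, or 6.67% beside 10.2%. These shares were near or below the background.

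The HP1 proteins Cbx1, Cbx3 and Cbx5 bind methylated histone H3 lysine 9. Cbx3 (HP1 gamma) stood at 7.65, 6.99 and 7.17 with control siRNA, at 7.44, 7.33 and 7.84 with Dppa2 siRNA, and at 7.0, 7.07 and 7.21 with Dppa4 siRNA. Its changes had opposite signs, 0.26 (-0.16 to 0.68) and -0.18 (-0.60 to 0.24). Cbx1 and Cbx5 changed by at most 0.11 in size in either knockdown.

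Sumo2, the modifier attached to Trim28, Setdb1 and other silencing proteins, had the largest positive change of any member. It stood at 6.57, 6.06 and 6.84 with control siRNA, at 6.47, 6.88 and 6.78 with Dppa2 siRNA, and at 7.06, 7.07 and 6.99 with Dppa4 siRNA. All Dppa4 libraries were above all control libraries, while the Dppa2 libraries overlapped them. The change with Dppa4 siRNA was 0.55 (0.12 to 0.98, adjusted p = 0.161), an interval of 1.09-fold to 1.97-fold, and with Dppa2 siRNA it was 0.22 (-0.20 to 0.65, adjusted p = 0.714). Over the 20 alternative settings the change with Dppa4 siRNA ran from 0.33 to 0.72 and its adjusted p from 0.0712 to 0.411.

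Sumo2 is also the member whose coding sequence is copied in full elsewhere in the genome. All 236 of its 50-base coding stretches are held by the processed pseudogene Gm10241 (chr16:20176727-20177012), 11 annotated genes hold at least 1 of them, and over the whole transcript 30.8% of stretches are shared. The start of the coding sequence, within chr11:115534655-115536118 (GRCm38, minus strand, GENCODE vM21), is shown with capitals for the bases also found in Gm10241, which is every base.
Sumo2: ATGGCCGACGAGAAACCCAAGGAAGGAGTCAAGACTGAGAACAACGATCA
The Sumo2 value therefore depends on how reads with several matches were treated, and their part in the difference was not tested.

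The other SUMO genes showed no call. The activating enzyme subunits Uba2 and Sae1 changed by -0.09 and 0.03 with Dppa2 siRNA and by -0.08 and 0.10 with Dppa4 siRNA. The SUMO ligase Pias4 changed by -0.02 and 0.03, with intervals inside -0.32 to 0.33. Morc3, a nuclear ATPase that silences endogenous retroviruses, changed by -0.02 and -0.29.

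Rif1 and Smchd1 had wide intervals. Rif1, which sets replication timing and also silences retroviral elements, stood at 8.18, 7.18 and 6.18 with control siRNA, at 6.12, 7.67 and 6.39 with Dppa2 siRNA, and at 6.38, 6.63 and 7.31 with Dppa4 siRNA. The control libraries spanned the whole range of both knockdowns but for Dppa2 library A. Its changes of -0.46 (-1.67 to 0.75) and -0.41 (-1.62 to 0.80) leave both a rise of 1.5-fold and a fall of 2-fold within reach. Smchd1, a structural maintenance of chromosomes protein known from X inactivation, stood at 5.48, 5.04 and 4.18, then 4.26, 5.16 and 4.55, then 4.58, 4.67 and 5.0. Its changes were -0.24 (-0.99 to 0.50) and -0.15 (-0.90 to 0.60).

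The RNA-binding members were steadier or nominally lower. Lin28a, which blocks maturation of let-7 microRNAs, stood at 8.28, 8.07 and 8.26, then 8.17, 8.27 and 8.21, then 8.19, 8.25 and 8.36. Its changes of 0.01 (-0.19 to 0.22) and 0.06 (-0.14 to 0.27) lay well inside a rise of 1.5-fold. Ncl, the nucleolar protein nucleolin, stood at 11.35, 11.10 and 11.86, then 11.28, 11.23 and 11.19, then 10.86, 10.99 and 11.35. Control library C was the highest, and the changes were -0.20 (-0.64 to 0.23) and -0.37 (-0.81 to 0.07).

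The widest intervals belonged to members with long transcripts. In 10 of 30 members (Atrx, Rif1, Smchd1, Zmym2, Cbx5, Rcor1, Ehmt1, Morc3, Uba2 and Zfp809) the same library of each group (control A, Dppa2 B and Dppa4 C) was more than 0.2 log2 units above the mean of the other 2 libraries. For Atrx, with the longest transcript at 10275 bases, these libraries stood 1.66, 1.26 and 0.66 units above the others of their groups. For Rif1 (8509 bases) they stood 1.5, 1.41 and 0.81 above. Shorter transcripts were among the 10 as well: Zfp809, at 1800 bases, stood 0.27, 0.39 and 0.26 above. Across the 30 members, which share these libraries, the deviation correlated with log2 transcript length at Pearson r = 0.563, 0.513 and 0.632, and with GC content at r = -0.519, -0.433 and -0.629. Chaf1a and Ncl, whose annotated transcripts are long (7698 and 8202 bases), did not follow control library A, at -0.12 and -0.13 units. Whether those annotated transcripts were the ones expressed was not tested.

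**Figure D4:**
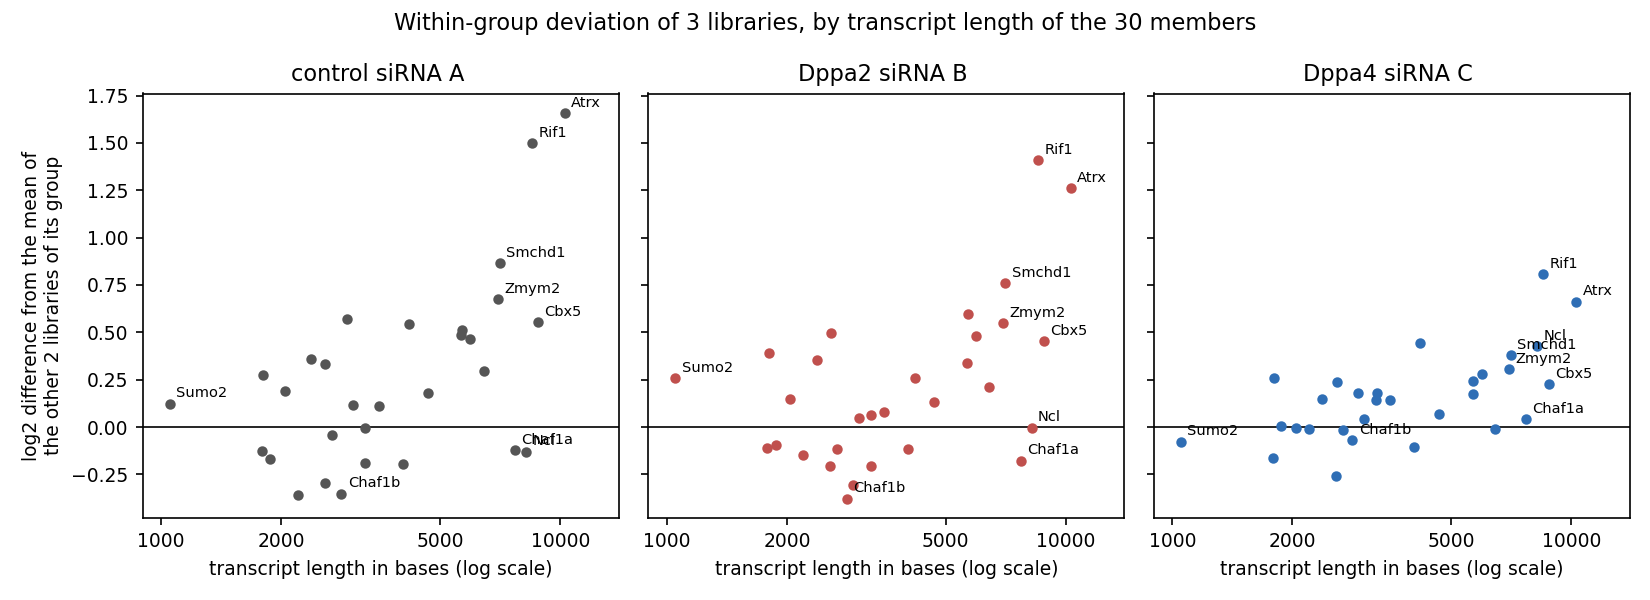
Log2 difference of control library A, Dppa2 library B and Dppa4 library C from the mean of the other 2 libraries of their group (y axis), against transcript length in bases on a log scale (x axis), with 1 point for each of the 30 members. Atrx and Rif1 are highest in each panel, while Chaf1a and Chaf1b lie near or below 0.

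With each library corrected for transcript length and GC content, an alternative chosen after the data were seen, 0 members were called by limma in either knockdown. At an unadjusted p below 0.05, 1 member passed with Dppa2 siRNA and 2 with Dppa4 siRNA. No share of all tested genes was counted for this correction, or with the 3 libraries above left out. The interval of Atrx narrowed to -0.56 to 0.58 in the Dppa2 and -0.74 to 0.40 in the Dppa4 knockdown, and that of Rif1 to -0.93 to 0.35 and -0.79 to 0.50. A rise of 1.5-fold then lay outside the intervals of 27 and 28 members, but of only 23 and 25 without control library A and no correction. Counts of positive changes became 15 and 16 of 30. Without those 3 libraries, 0 members were called, 2 and 5 passed the unadjusted threshold, and the medians were -0.04 and 0.02. The change of Zfp809 was then -0.66 in the Dppa2 and -0.57 in the Dppa4 knockdown (limma adjusted p = 0.0859 and 0.123).

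The knockdowns were also compared with each other, Dppa4 siRNA minus Dppa2 siRNA. Limma called 0 of 30 members, and 0.0205% of all tested genes. At an unadjusted p below 0.05, Trim28 and Cbx3 passed, or 6.67% of members beside a background of 6.76%. Trim28 was 0.22 higher with Dppa4 siRNA than with Dppa2 siRNA (0.03 to 0.41, adjusted p = 0.698), and all 3 Dppa4 libraries were above all 3 Dppa2 libraries. Cbx3 was 0.44 lower in log2 units, a difference of -0.44 (-0.86 to -0.02, adjusted p = 0.724), with no overlap. In all, 5 members stood wholly higher (Trim28, Hdac1, Wiz, Sumo2 and Sae1) and 1 wholly lower (Cbx3). The share of all tested genes without overlap was not counted for this comparison, so these counts have no background. Sumo2 differed by 0.33 (-0.10 to 0.75, adjusted p = 0.806), so its larger change with Dppa4 siRNA was not shown to differ from that with Dppa2 siRNA.

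Partner genes of the same complexes gave a like result. The list held 55 further repressors, among them 8 NuRD subunits, 7 CoREST and LSD1 partners, 4 HUSH genes, 7 other histone chaperones and 11 other SUMO enzymes. All 55 were tested, and limma called 0 in either knockdown, beside 3.44% of all tested genes in each. At an unadjusted p below 0.05, 2 and 3 of the 55 passed, beside 15.7% and 18% of all tested genes. No share was counted at the partners' own range of expression. Their median change was 0.01 in the Dppa2 and 0.04 in the Dppa4 knockdown. A positive change was seen in 30 and 34 of the 55, or 54.55% and 61.82%. The shares of all tested genes were 54.05% and 55.35%. Atf7ip, a cofactor of Setdb1, changed by -0.38 (-0.73 to -0.03, adjusted p = 0.27) with Dppa2 siRNA and by -0.27 with Dppa4 siRNA. Atf7ip was named after its values were seen. Over all 55, changes ran from -0.63 to 0.45 with Dppa2 siRNA and from -0.40 to 0.34 with Dppa4 siRNA. The lowest limma adjusted p belonged to other genes. With Dppa2 siRNA it was 0.2415, among the CoREST and LSD1 partners, whose changes ran from -0.12 to 0.45. With Dppa4 siRNA it was 0.179, among the other SUMO enzymes, whose changes ran from -0.16 to 0.32.

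The tested 2-cell genes were lower in the knockdown libraries. Of 30 in the table, 25 passed the filter on low values, which they did through the control libraries, so counts over them are given as a description only. With Dppa2 siRNA 24 were called, all lower, and with Dppa4 siRNA 25. Zscan4c, a zinc finger gene of the 2-cell embryo, stood at 3.85, 4.0 and 4.09 with control siRNA, at -3.59, -3.84 and -1.13 with Dppa2 siRNA, and at -2.38, -3.37 and -2.07 with Dppa4 siRNA. Zscan4d stood between 4.62 and 5.05 with control siRNA and between -3.80 and -1.40 in the knockdowns. Tmem92 went from 3.20, 3.55 and 3.84 to -1.72, -2.65 and -2.95 and to -2.99, -2.63 and -3.40. Zfp352 stood between 0.94 and 1.43 with control siRNA and at -3.65 or below in every knockdown library. Tcstv3 stood between 0.97 and 2.66 and then at -2.95 or below. Trim43b, which did not pass the filter, was an exception, at -2.66, -3.27 and -3.40 with control siRNA, at -4.05, -2.25 and -2.95 with Dppa2 siRNA, and at -1.79, -2.63 and -1.39 with Dppa4 siRNA, where it was above every control library. A gene with 0 reads was listed near -4.5, so the size of these falls depends on that floor. Zscan4c shares 85.7% of its 50-base stretches with other genes, chiefly of its own cluster, so single Zscan4 genes are uncertain.

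The mean over the 30 repressors lay between 6.81 and 7.12 in the control libraries and between 6.79 and 7.03 in the 6 knockdown libraries, so these ranges overlapped.

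**Figure D5:**
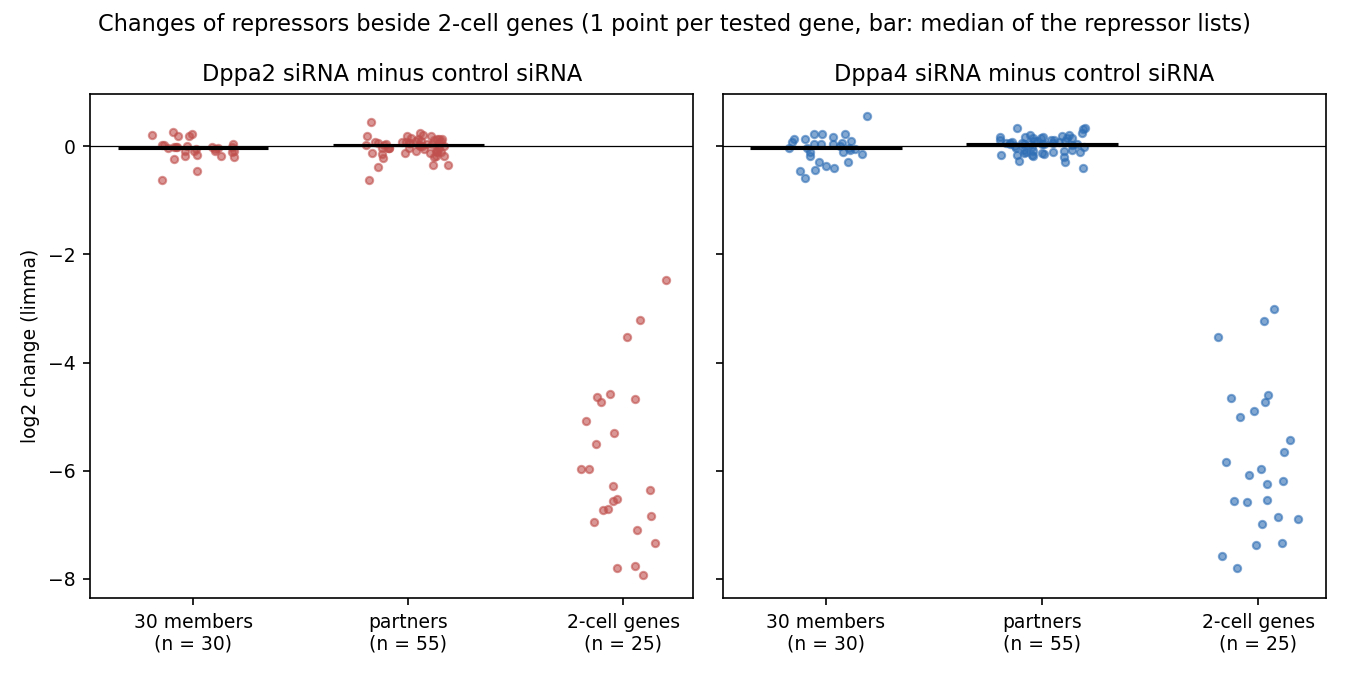
Log2 change of the 30 members, 55 partner genes and 25 tested 2-cell genes with Dppa2 siRNA (left) and Dppa4 siRNA (right), 1 point per gene, with a bar at the median of each repressor list. The repressors lie within 1 log2 unit of 0, and every 2-cell gene shown lies below -2, with a size that depends on the value listed for 0 reads.

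ESC markers were still expressed in the knockdowns, but small changes were not excluded. The intervals of only 3 of 7 lay within 1.5-fold in each knockdown. A positive change was seen in 6 with Dppa2 and 5 with Dppa4 siRNA, while Nanog changed by -0.22 and -0.28. Of 7 ESC markers, limma called 0 in either knockdown, with 0 at an unadjusted p below 0.05, and their summed log2 level was 11.3 to 11.7 with control, 11.6 to 11.8 with Dppa2 and 11.6 to 11.7 with Dppa4 siRNA. Of 6 primitive endoderm markers, 2 (Gata6 and Sox17) were called higher with Dppa4 siRNA and 0 with Dppa2 siRNA. At an unadjusted p below 0.05, 5 passed with Dppa4 siRNA and 3 with Dppa2 siRNA. Their summed log2 level was 3.31 to 3.80 with control, 3.74 to 4.09 with Dppa2 and 4.26 to 4.41 with Dppa4 siRNA, and their part in the values of the repressors was not tested. Of 6 trophoblast markers, 5 were tested and 0 called, with 0 and 1 at an unadjusted p below 0.05, and Elf5 was at or near 0 reads. Of 6 fibroblast markers, 3 were tested and Pdgfrb was called higher in both knockdowns, while Col1a2, Col3a1 and Lum did not pass the filter. Of 6 epiblast and mesoderm markers, all were tested and 0 called, with 3 and 1 at an unadjusted p below 0.05.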

How the data were processed

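Per the study's methods and the submitters' processing notes in the labels, the authors trimmed reads with Trim Galore (0.4.5 in the notes, another version in the methods), aligned them to GRCm38 with HISAT2 2.0.5, quantified mRNA by strand in SeqMonk and matched the distributions of the 9 libraries. The deposited values are log2 expression, with no counts. Distribution matching hides a shift shared by all genes. It also lets the highest genes share values: 11.2828 was held by Trim28 in control library B and by Ncl in Dppa2 library A. The spread and intervals of Trim28 and Ncl therefore reflect their rank within each library. Gene identity, length and GC content came from GENCODE vM21 (GRCm38).

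A gene was tested if 3 or more libraries exceeded -2 on the log2 scale. Tests used limma 3.58.1 (R 4.3.3) with an intensity trend over all 3 groups, 2-sided, with Benjamini-Hochberg adjustment. The code was tested on simulated data. The main fit had no replicate block. Correlations of deviations between same-letter libraries ran from -0.585 to 0.367. They also carry the library differences by transcript length, so they cannot show whether the letters pair libraries, which the labels do not say. Estimated depth was 16.8 to 39.7 M reads per library, and it limits precision.

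Members and lists were chosen with earlier results of these data known. Described in full were 12 lead factors and the 5 other members with the largest mean absolute change, besides any member called. The table's identifiers for 2 of 34 names in the 2-cell list were not matched, and 2 more were repeats. Alternatives covered the trend, robust fitting, filters, scaling, pseudocount, replicate block and each library left out. Correction for length and GC, and leaving out 3 libraries, were added after the data were seen. The values of 1 partner gene are not reported here. Figures used Python 3.11.15 and matplotlib 3.10.9.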

Additional observations from a re-analysis of the deposited data

How the results depend on the processing

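The count of 0 members called in the Dppa2 knockdown became 1 (Zfp809) with no filter on low values, and ran from 0 to 1 when libraries were left out, with the 1 without Dppa2 library B. It was 0 in the Dppa4 knockdown and between the knockdowns under all 21 alternatives. Partner calls in the Dppa2 knockdown became 1 with no filter, and were 0 otherwise. With a block for the replicate letter, which is not known to pair these libraries, 0 members and 0 partners were called. The 2-cell calls fell to 4 of 4 tested in both knockdowns without the 3 libraries highest in long transcripts, and ran from 5 to 25 in each when libraries were left out, since the filter needs 3 libraries and 5 genes passed it without a control library. The members' median change in the Dppa4 knockdown ran from -0.11 without control library C to 0.081 without control library A. In 17 of 34 changes of described members the sign differed in at least 1 alternative, with no call on either side. With 3 libraries per group, the spread of Atrx, Rif1 and Smchd1 left a change of 1.5-fold in either direction inside the interval of at least 1 knockdown.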

Other observations

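Paralogs and partner subunits among the repressors kept a fixed order of level per kb in all 9 libraries, with the pair of Asf1a and Asf1b excepted. Ehmt2 exceeded Ehmt1 by 1.77 ± 0.45 log2 units (SD, n = 3) with control siRNA and by at least 1.33 in every library. Per kb, Chaf1a was below Chaf1b in every library, with a difference of -0.88 ± 0.15 with control siRNA. Before division by their annotated lengths of 7698 and 2828 bases, Chaf1a was above Chaf1b in every library, so this order rests on those lengths. Cbx1 exceeded Cbx3 by at least 0.305 and Cbx5 by at least 1.66, and Cbx3 exceeded Cbx5 by at least 0.64. Sae1 was above its partner Uba2, with differences of Uba2 minus Sae1 from -0.92 to -0.22. Hdac1 exceeded Hdac2 by 0.96 ± 0.53 with control, 1.14 ± 0.21 with Dppa2 and 1.52 ± 0.105 with Dppa4 siRNA, a widening that was not tested and that rests on the uncertain Hdac1 values. Asf1a and Asf1b were the exception, at -0.05 to 0.41. These differences rest on the annotated transcript lengths. Before division by length, Cbx3 was below Cbx5 in every library.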
